A study of Mus musculus with 6 samples.

Results

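The 49 genes described here encode proteins of the G2 phase and of mitosis: cyclins and their kinase, checkpoint proteins, mitotic kinases, kinesin motors, kinetochore and condensin subunits, and cytokinesis factors. They were taken as a list of gene symbols, and all 49 were found among 24062 symbols counted and among the 13185 genes with enough reads to be tested. RNA came from NIH3T3, an established line of mouse fibroblasts, in a study of SPT6 (gene Supt6), a transcription elongation factor and histone chaperone, in the response to interferon beta (IFN-beta). All cells were transfected with an siRNA by lipofection and kept for 48 h: a negative control siRNA or one against SPT6. They were then left untreated, which the titles call 0 h, or given mouse recombinant IFN-beta at 100 units/ml for 4 h. There was 1 untreated library for each siRNA, numbered replicate 1, and there were 2 IFN-beta libraries for each, numbered 1 and 2. No library kept for 4 h without IFN-beta is named, so the time itself and IFN-beta cannot be told apart. Only 1 siRNA against SPT6 was used, and the labels do not say whether the numbered libraries came from separate cultures, so tests measure the spread between these libraries, which may be technical.

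Genes of this kind are transcribed in waves. In resting and G1 cells the DREAM complex, a repressor built on the MuvB core, holds them off, and in G2 the same core joins the transcription factors B-MYB and FOXM1 to switch them on. Their promoters often carry a CHR element (cell cycle genes homology region), which MuvB binds, and CCAAT boxes, which NF-Y binds. Because their RNA is high only in cells that approach or pass through division, their summed level in a culture is widely used as a readout of proliferation. In bulk RNA fewer dividing cells and less RNA per dividing cell cannot be told apart.

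Promoters were matched by symbol in RefSeq (GRCm38.p6) for 42 of the 49 genes; Aurkb, Ccna2, Foxm1, Incenp, Kif20a, Smc4 and Tpx2 had no entry. In the 300 bases from 250 before to 50 after the start, a CHR match (TTTGAA or TTCGAA, on either strand) was found in 31 of the 42 (73.8%), against 21.7% of 27025 genes with a promoter entry. A CCAAT match on either strand was found in 31 (73.8%), against 41.1% of all, and both kinds in 27 (64.3%), against 8.61% of all. Other cell cycle genes shared part of this. CCAAT was found in 64.9% of 57 further G2/M and mitosis genes and 64.3% of 28 G1/S and DNA replication genes. For CHR the shares were 71.9% and 21.4%. Over all promoters 48 matches of the 2 kinds overlapped. When only the 250 bases before the start were searched, CHR was found in 16 of the 42 (38.1%, against 19.6%), CCAAT in 31 (73.8%, against 37.5%) and both in 14 (33.3%, against 7%). Below are those 250 bases for the 4 genes with the highest mean level among those holding both, to show the letters these genes share, written 5′ to 3′ on the gene's strand with CHR and CCAAT matches in capitals.
Top2a: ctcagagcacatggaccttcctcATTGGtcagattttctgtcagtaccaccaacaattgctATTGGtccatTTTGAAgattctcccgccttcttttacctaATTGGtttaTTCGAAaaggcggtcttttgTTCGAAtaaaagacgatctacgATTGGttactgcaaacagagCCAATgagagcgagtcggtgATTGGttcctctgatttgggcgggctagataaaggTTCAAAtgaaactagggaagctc
Mki67: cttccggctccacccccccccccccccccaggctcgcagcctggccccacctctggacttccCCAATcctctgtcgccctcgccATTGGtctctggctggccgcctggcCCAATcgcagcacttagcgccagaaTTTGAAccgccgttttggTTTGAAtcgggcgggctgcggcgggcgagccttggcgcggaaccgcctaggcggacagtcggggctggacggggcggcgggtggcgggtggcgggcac
Kif11: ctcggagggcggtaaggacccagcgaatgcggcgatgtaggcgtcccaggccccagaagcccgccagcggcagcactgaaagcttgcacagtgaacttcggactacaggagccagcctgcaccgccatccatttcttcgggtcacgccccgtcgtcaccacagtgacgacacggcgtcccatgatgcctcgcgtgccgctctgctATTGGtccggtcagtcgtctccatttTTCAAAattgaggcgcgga
Smc2: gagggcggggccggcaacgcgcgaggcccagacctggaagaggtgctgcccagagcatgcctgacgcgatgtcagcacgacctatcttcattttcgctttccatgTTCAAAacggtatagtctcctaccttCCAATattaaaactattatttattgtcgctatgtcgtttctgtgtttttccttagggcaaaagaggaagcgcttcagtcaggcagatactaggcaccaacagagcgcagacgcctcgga
They lie at chr11:99024190-99024439 (minus strand), chr7:135716380-135716629 (minus), chr19:37376132-37376381 (plus) and chr4:52438971-52439220 (plus). Top2a holds 4 CHR and 6 CCAAT matches, Mki67 2 and 3, and Kif11 and Smc2 1 of each. The first base of the Kif11 CHR is 19 before the start (-19) and that of its CCAAT at -45, while in Smc2 the CHR (-145) lies farther out than the CCAAT (-119). A match is a run of letters and was not tested as a binding site.

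The 6 libraries held 7935961 to 17596498 counts in genes, and the SPT6 siRNA library was the shallower one in each pair. No member had fewer than 177 counts in any library (Ccnb2). Levels are given as CPM, a gene’s read count per 1e+06 reads of its library’s TMM-scaled total. Supt6 itself stood at 175, 177 and 189 CPM with control siRNA (untreated, IFN-beta 1, IFN-beta 2) against 101, 108 and 88.4 CPM with SPT6 siRNA in the same order, so the groups did not overlap (log2 difference with IFN-beta -0.90 ± 0.18 SE; edgeR adjusted p = 0.247; DESeq2 called it). All 10 fibroblast markers checked were present, summing to 12550 to 19310 CPM, while epithelial and endothelial markers summed to at most 0.957 and 0.87 CPM, with Epcam at 0 counts everywhere. Blood markers summed to 3.32 to 4.67 CPM with control siRNA and 8.27 to 13.3 CPM with SPT6 siRNA, nearly all of it Cd68 and Csf1r; the defining marker Ptprc had 0 to 3 counts. Their part in the results below was not tested.

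The main question was whether the mitotic genes differed between SPT6 and control siRNA. All 49 were lower with SPT6 siRNA in IFN-beta treated cells, with a median log2 difference of -0.59, that is a level of about 0.66 times control (range -0.81 for Smc4 to -0.32 for Bub1). Of all genes tested 52% were below 0, and their median was -0.02. Levels are relative to the other genes of a library, so a change in RNA shared by most genes would not show. In 42 of the 49 neither SPT6 siRNA library reached the lower of the control libraries, against 21.3% of all genes; the 7 that overlapped were Ccnb2, Foxm1, Bub1, Espl1, Nek2, Spc25 and Ncaph. No member passed the test over all genes, fitted without a replicate block (edgeR quasi-likelihood, Benjamini-Hochberg adjusted p from 0.349 upward; 0% of all genes called), nor with DESeq2 (0.0303% of all genes lower) or limma-voom (0%). Unadjusted p-values under 0.05 were seen in 28 members, all lower, against 4.31% of all genes lower at that level.

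**Figure D1:**
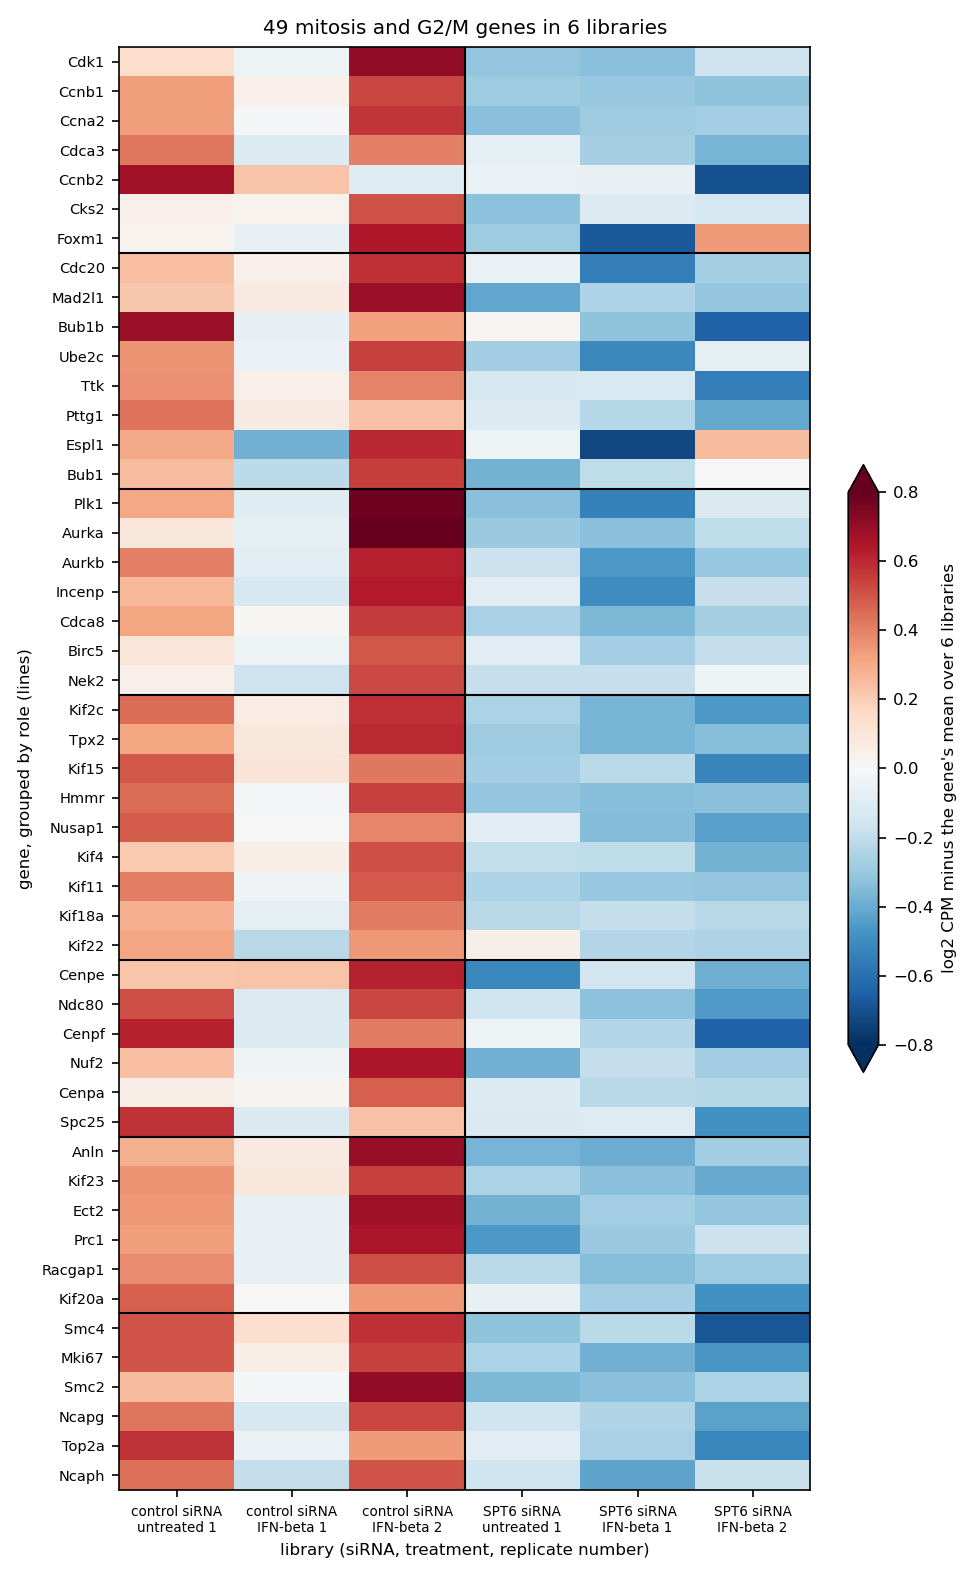
Heat map of 49 genes (rows, grouped by role) in 6 libraries (columns). Color is log2 CPM minus the gene's own mean over the 6 libraries, from blue (lower) to red (higher). Nearly every gene is blue in the 3 SPT6 siRNA columns, and the control columns are reddest in IFN-beta replicate 2.

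The same direction was present before IFN-beta. In the untreated pair, 1 library against 1 with no replicate check, all 49 genes were lower with SPT6 siRNA, with a median of -0.61 (52.2% of all genes were below 0). Within the IFN-beta pair numbered 1 the median was -0.28 with 47 of 49 below 0 (50.5% of all genes), and within the pair numbered 2 it was -0.86 with 49 of 49 below 0 (52.2% of all). The 2 exceptions were Bub1 and Spc25, whose levels in pair 1 were nearly equal. In all, 47 genes were lower in each of the 3 pairs, against 28.3% of all genes, and in 37 the highest SPT6 siRNA library was below the lowest control library, against 9.32% of all. The size of the difference rested most on control IFN-beta replicate 2: without it the median was -0.28 with 46 genes below 0, and without control IFN-beta replicate 1 it was -0.83 with 49 below 0. The fibroblast markers moved with the same contrast: their median was -0.54, with 10 of 10 below 0. In the control libraries they summed to 18130, 19310 and 16880 CPM (untreated, IFN-beta 1, IFN-beta 2) and with SPT6 siRNA to 14170, 13240 and 12550 CPM. Their part in the lower mitotic genes was not tested.

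**Figure D2:**
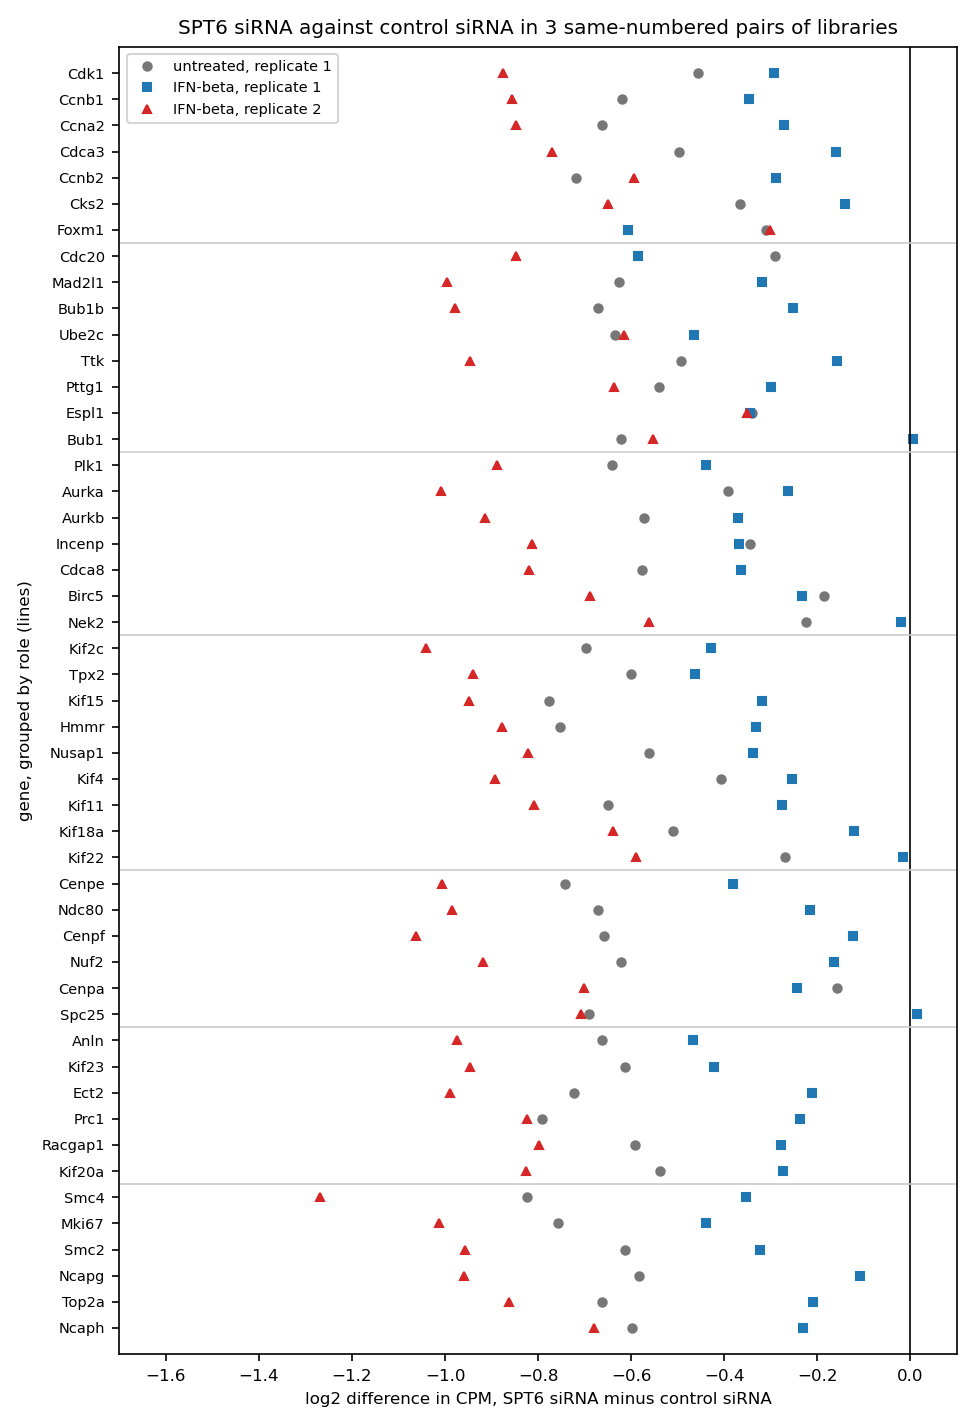
Log2 difference in CPM, SPT6 siRNA minus control siRNA, for each of 49 genes in the untreated pair (circles), IFN-beta pair 1 (squares) and IFN-beta pair 2 (triangles). All points but those of Bub1 and Spc25 in pair 1 lie left of 0, with medians of -0.61, -0.28 and -0.86.

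Across the 3 libraries of each siRNA, 1 untreated and 2 with IFN-beta, most members also spread less with SPT6 siRNA. The ratio of the highest to the lowest of the 3 libraries had a median of 1.5 over the members with control siRNA and 1.21 with SPT6 siRNA, and it was wider with control siRNA in 46 of 49, the exceptions being Foxm1, Ttk and Smc4. Of all genes above 0 in every library, 50.6% were wider with control siRNA, with medians over all genes of 1.38 and 1.37. Other cell cycle genes shared the trait: it was wider with control siRNA in 59 of 73 further G2/M and mitosis genes and 31 of 34 G1/S and DNA replication genes. As control IFN-beta replicate 2 exceeded replicate 1 in 48 of the 49 members, genes are not separate observations here. Each ratio mixes treatment with replicate number, and the difference in spread was not tested. Summed over the 49 genes, the level was 6692, 5077 and 7330 CPM in the control libraries (untreated, IFN-beta 1, IFN-beta 2) against 4335, 4105 and 3954 CPM with SPT6 siRNA. As a share of all gene counts this was 0.681%, 0.483% and 0.702% against 0.456%, 0.408% and 0.407%, with exact 95% binomial intervals no wider than 0.451% to 0.46%, which cover counting error only. The lowest control library was IFN-beta replicate 1, and it still lay above all 3 SPT6 siRNA libraries.

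Cyclins and their kinase open the sequence of mitotic events. Cyclin A2 and the B-type cyclins activate CDK1, whose activity drives entry into mitosis; Cks2 is a small CDK-binding subunit, Cdca3 promotes mitotic entry, and Foxm1 is the transcription factor of this gene wave. All 7 genes were lower with SPT6 siRNA and IFN-beta (median -0.49), 3 at an unadjusted p under 0.05 (4.31% of all genes were lower at that level). The smallest adjusted p was 0.37, that of Ccnb1. Ccna2 (chromosome 3, 36564865 to 36572150, GRCm38) stood at 214, 168 and 252 CPM with control siRNA (untreated, IFN-beta 1, IFN-beta 2) against 135, 139 and 140 CPM with SPT6 siRNA. Its 3 SPT6 siRNA values were close to each other and below every control value; between the IFN-beta groups it differed by -0.59 ± 0.22 on the log2 scale (SE). Cdk1 (chromosome 10, 69335146 to 69352938) stood at 107, 94.9 and 160 CPM against 78.2, 77.4 and 86.9 CPM in the same order, again without overlap, at -0.63 ± 0.26. Foxm1 (chromosome 6, 128362967 to 128376146) differed in shape, at 67.7, 63.6 and 104 CPM in the control libraries against 54.6, 41.7 and 83.9 CPM with SPT6 siRNA. It was the lower one in each pair, but its SPT6 siRNA replicate 2 lay above control replicate 1, and the difference was -0.41 ± 0.39. Ccnb2 was the one member lower in control IFN-beta replicate 2 than in replicate 1, at 23.3 and 29.3 CPM, and it reached its lowest value, 15.4 CPM, in SPT6 siRNA replicate 2.

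The spindle checkpoint delays anaphase until every chromosome is attached. Bub1, Bub1b, Ttk and Mad2l1 carry its signal, Cdc20 and the ubiquitin-conjugating enzyme Ube2c work with the anaphase-promoting complex that it restrains, and Pttg1 (securin) holds back Espl1 (separase), the protease that opens cohesin. All 8 were lower with SPT6 siRNA (median -0.55), 4 at an unadjusted p under 0.05 (4.31% of all genes), with adjusted p from 0.356 upward. Cdc20 (chromosome 4, 118432901 to 118437352) was at 129, 112 and 164 CPM in the control libraries against 106, 74.7 and 91.1 CPM with SPT6 siRNA. No library of one siRNA overlapped the other, and Cdc20 had the lowest difference of the group, -0.74 ± 0.23 (SE). Bub1 (chromosome 2, 127801122 to 127831865) had the difference nearest 0 of all members, -0.32 ± 0.27. Its levels were 91.3, 66.6 and 113 CPM in the control libraries against 59.2, 66.8 and 76.8 CPM, so that pair 1 was level while the other pairs were apart. Without control IFN-beta replicate 2 its difference was 0.11. Espl1 was the other gene with a wide spread, at 71.6, 44.6 and 88.3 CPM against 56.5, 35.1 and 69.2 CPM. It was lower by a like amount in each same-numbered pair (-0.34, -0.34 and -0.35), but the IFN-beta groups overlapped. Its mean over the 2 IFN-beta SPT6 siRNA libraries, 52.1 CPM, lay above control IFN-beta replicate 1 (44.6 CPM). The direction of its IFN-beta group difference therefore rested on control IFN-beta replicate 2, which the untreated pair and pair 1 do not use.

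Among the mitotic kinases, Plk1 and Aurka act at centrosomes and spindle poles and Nek2 in centrosome separation, while Aurkb forms the chromosomal passenger complex with Incenp, Birc5 (survivin) and Cdca8 (borealin), which corrects attachments and directs cytokinesis. All 7 were lower with SPT6 siRNA and IFN-beta (median -0.63), 2 at an unadjusted p under 0.05 (4.31% of all genes), with adjusted p from 0.388 upward. Plk1 (chromosome 7, 122159439 to 122169873) was at 39.9, 30 and 55.1 CPM in the control libraries against 25.5, 22.1 and 29.7 CPM with SPT6 siRNA, a difference of -0.72 ± 0.32 (SE). Incenp (chromosome 19, 9872296 to 9899551) was at 73.6, 56.1 and 95.1 CPM against 57.9, 43.4 and 54 CPM. Its untreated SPT6 siRNA library lay just above control IFN-beta replicate 1, and the IFN-beta groups did not overlap (-0.63 ± 0.28). Nek2 (chromosome 1, 191821444 to 191833050) was at 52.4, 45.4 and 73.2 CPM against 44.8, 44.8 and 49.6 CPM, where only the second control IFN-beta library stood well apart (-0.33 ± 0.26; 0.06 without that library). In the untreated pair this group had a median of -0.39, nearer 0 than the other roles, which ran from -0.50 to -0.67; the gap between roles was not tested.

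Kinesin motors and spindle proteins build and move the spindle. Kif11 (Eg5) pushes the poles apart with Kif15, Kif2c and Kif18a shorten or restrain microtubule ends, Kif22 and Kif4 work on chromosome arms, Tpx2 activates Aurora A at the spindle, and Nusap1 and Hmmr bind spindle microtubules. All 9 were lower with SPT6 siRNA (median -0.60) without overlap of the IFN-beta groups, as were 21.3% of all genes. At an unadjusted p under 0.05 were 7, against 4.31% of all genes, with adjusted p from 0.349 upward. Kif11 (chromosome 19, 37376403 to 37421859) was at 169, 125 and 180 CPM in the control libraries against 108, 103 and 103 CPM with SPT6 siRNA, a difference of -0.57 ± 0.21 (SE). Kif2c (chromosome 4, 117159639 to 117182639) was at 100, 76.3 and 110 CPM against 61.6, 56.6 and 53.3 CPM, the lowest difference of this group (-0.76 ± 0.22). For both, the lowest control library exceeded the highest SPT6 siRNA library. Kif22 (chromosome 7, 127027729 to 127042471) was at 40.9, 28.2 and 41.8 CPM against 33.9, 27.9 and 27.8 CPM and was almost level in pair 1 (-0.33 ± 0.23).

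At the centromere, Cenpa is the histone H3 variant that marks the site, Cenpe is a kinetochore motor and Cenpf a large kinetochore protein, and Ndc80, Nuf2 and Spc25 are subunits of the complex that grips microtubules. All 6 were lower with SPT6 siRNA (median -0.59), 3 at an unadjusted p under 0.05 (4.31% of all genes), with adjusted p from 0.349 upward. Cenpe (chromosome 3, 135212537 to 135273611) was at 271, 272 and 356 CPM in the control libraries against 162, 209 and 177 CPM with SPT6 siRNA. These groups were well apart (-0.70 ± 0.20, SE). Spc25 (chromosome 2, 69193895 to 69206194) was at 35.9, 22.2 and 28.3 CPM against 22.2, 22.4 and 17.2 CPM, so that control IFN-beta replicate 1 was level with the untreated and first IFN-beta SPT6 siRNA libraries and above the second (-0.35 ± 0.23). Cenpa was nearest 0 of all members in the untreated pair (-0.16) and lay at -0.24 and -0.70 in the IFN-beta pairs.

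In cytokinesis, Prc1 bundles the midzone, Kif20a and Kif23 are its motors, Racgap1 joins Kif23 in centralspindlin and recruits Ect2, which activates RhoA, and Anln (anillin) scaffolds the contractile ring. All 6 were lower with SPT6 siRNA (median -0.61). In all 6 the highest SPT6 siRNA library was below the lowest control library, against 9.32% of all genes. At an unadjusted p under 0.05 were 5, against 4.31% of all genes, with adjusted p from 0.35 upward. Anln (chromosome 9, 22332012 to 22389188) was at 288, 248 and 381 CPM in the control libraries against 182, 179 and 194 CPM with SPT6 siRNA (-0.75 ± 0.24, SE). Kif20a (chromosome 18, 34624613 to 34633277) was at 124, 89.2 and 113 CPM against 85.5, 73.8 and 63.8 CPM (-0.56 ± 0.19). Both had their lowest control value in IFN-beta replicate 1, still above the highest SPT6 siRNA value.

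Condensin, whose Smc2 and Smc4 subunits close around DNA with Ncapg and Ncaph, compacts mitotic chromosomes with topoisomerase II alpha (Top2a), and Mki67 encodes Ki-67, the proliferation antigen that coats them. All 6 were lower with SPT6 siRNA (median -0.63), 4 at an unadjusted p under 0.05 (4.31% of all genes), with adjusted p from 0.35 upward. Smc4 (chromosome 3, 69004738 to 69034623) had the lowest difference of all members, -0.81 ± 0.24 (SE), at 417, 324 and 442 CPM in the control libraries against 236, 254 and 183 CPM with SPT6 siRNA. Top2a (chromosome 11, 98992943 to 99024189) was at 950, 614 and 806 CPM against 600, 531 and 443 CPM (-0.54 ± 0.22). Mki67 was at 761, 557 and 782 CPM against 450, 411 and 388 CPM (-0.75 ± 0.22), and for these 3 genes no control library was as low as any SPT6 siRNA library. Ncaph (chromosome 2, 127103809 to 127133954) was at 61.3, 39.5 and 64 CPM against 40.4, 33.6 and 39.9 CPM, where the IFN-beta groups overlapped slightly (-0.49 ± 0.26). Per kilobase of exon in GENCODE, as CPM per kb averaged over the 6 libraries, Top2a had the highest level of the 49 at 126. Smc4 (71.7), Cks2 (63.1), Cdc20 (62.9) and Mki67 (55.5) followed, and Mad2l1 (6.49) and Espl1 (9.07) were the lowest. Exons of all listed transcripts of a gene were merged, which gave Mad2l1 8032 bases, and its place depends on that length.

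Members with and without these motifs were set side by side. Within the 300-base window the 31 members with a CHR match had a median log2 difference of -0.60 with SPT6 siRNA and IFN-beta (-0.76 to -0.32) and the 11 without one a median of -0.49 (-0.70 to -0.33). In the 250 bases before the start the medians were -0.60 (16 members with CHR) and -0.59 (26 without), so the gap was seen only in the longer window. With and without a CCAAT match the medians were -0.57 (31 members) and -0.60 (11 members). These ranges overlap, and the values are a description with no test. Exons of 8 members overlap those of a counted gene on the opposite strand (Ccna2 with Exosc9, Cdc20 with Elovl1, Ube2c with Tnnc2, Kif4 with Pdzd11, Nusap1 with Oip5, Prc1 with Rccd1, Kif20a with Cdc23, Ncapg with Lcorl), so their reads may be shared or left out. The other 41 members had a median of -0.62 with 41 below 0 and 39 lower in all 3 pairs.

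After IFN-beta the mitotic genes lay on both sides of the untreated level. With control siRNA the median log2 difference from the untreated library was -0.08, with 30 of 49 below 0 (50.6% of all genes), and none was called (edgeR; 0% of all genes called lower and 0.137% called higher; 0 members at an unadjusted p under 0.05, against 8.24% of all genes, 2.94% lower). The 2 libraries behind that value went opposite ways. In control IFN-beta replicate 1, 48 members were below the untreated library, with a median of -0.39 (52.9% of all genes below 0), while in replicate 2 only 10 were below it, with a median of 0.20 (49.8% of all genes). Cdk1 went from 107 CPM untreated to 94.9 and 160, and Aurka from 46.6 to 41.6 and 76.6 CPM. Bub1b, Cenpf, Spc25, Top2a, Kif20a and 5 other members were below the untreated library in both. Replicate 2 exceeded replicate 1 in 48 members, by a median of 0.55, against a median of 0.02 over all genes.

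With SPT6 siRNA the same response had a median of -0.09, with 32 of 49 below 0 (49.3% of all genes) and none called (0% of all genes called lower and 0.0455% higher; 0 members at an unadjusted p under 0.05, against 5.85% of all genes, 2.01% lower; 0 members with DESeq2 or limma-voom in either response). Here both IFN-beta libraries stood close to the untreated one, with medians of -0.08 and -0.07 and 35 and 32 members below 0 (50.2% and 49.9% of all genes). Replicate 2 minus replicate 1 had a median of -0.02, with 28 members below 0 (50.1% of all genes); Foxm1 (41.7 and 83.9 CPM) and Espl1 (35.1 and 69.2 CPM) were higher in replicate 2 and Ccnb2 (24 and 15.4 CPM) lower. The difference between the 2 responses, tested as an interaction, had a median of 0.00 over the members with 25 below 0 (51% of all genes), a smallest adjusted p of 0.9999 and 0 members at an unadjusted p under 0.05 (0.379% of all genes, 0.0834% lower). A p that misses the threshold does not show that the responses are alike: without control IFN-beta replicate 1 the median was -0.22 and without its replicate 2 it was 0.28.

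**Figure D3:**
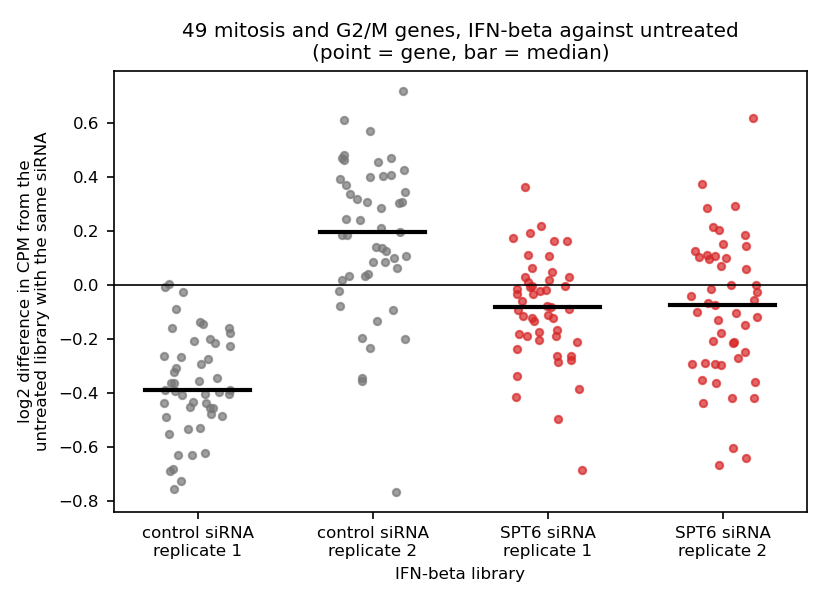
Log2 difference in CPM of 49 genes between each IFN-beta library and the untreated library with the same siRNA; points are genes and bars medians. Control siRNA replicates lie on opposite sides of 0 (medians -0.39 and 0.20), and both SPT6 siRNA replicates lie near 0 (-0.08 and -0.07).

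Other cell cycle genes showed how far the pattern reached. Of 73 further G2/M and mitosis genes 72 were below 0 with SPT6 siRNA and IFN-beta (median -0.51), and 67 were lower in all 3 pairs (28.3% of all genes). An unadjusted p under 0.05 was seen in 29, all lower (4.31% of all genes), and none was called. The largest differences were those of Ska2, a kinetochore protein gene (33.5 and 49.9 CPM in the control libraries against 21.1 and 18.7 CPM; -1.07 ± 0.24, SE), Fam64a (-0.96 ± 0.20) and Dlgap5, a spindle protein gene (-0.86 ± 0.26). Of 34 G1/S and DNA replication genes 33 were below 0 (median -0.61, against -0.32 in the untreated pair); none was called and 7 had an unadjusted p under 0.05. Uhrf1, a factor of DNA methylation upkeep, was at 145 and 260 CPM against 92.2 and 118 CPM (-0.94 ± 0.30), Gins1 at -0.91 ± 0.37 and Ccne2 at -0.84 ± 0.36.

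Machinery that is present throughout the cell cycle lay nearer the centre of all genes. The 13 genes listed for the anaphase-promoting complex, its subunits and the activator gene Fzr1, had a median of -0.15 with 10 below 0. They ran from Cdc23 (-0.40 ± 0.21, SE) and Anapc4 (-0.32 ± 0.17) to Anapc13 (0.45 ± 0.29). The 10 cohesin genes had a median of -0.07 with 8 below 0, the lowest being Smc1a (-0.46 ± 0.20), Rad21 (-0.31 ± 0.22) and Smc3 (-0.28 ± 0.19). Lower in all 3 pairs were 9 of the 13 and 5 of the 10, against 28.3% of all genes. Their medians in the untreated pair were -0.17 and -0.24. None of these genes was called, and none had an unadjusted p under 0.05. Whether these lists differ from the mitotic genes was not tested.

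Regulators of the mitotic gene wave were mostly below 0 by varied amounts, among them 5 of the 6 tested genes of the E2F group. Among 12 DREAM and MuvB-MYB genes 10 were below 0 (median -0.29), led by the MuvB subunit genes Lin9 (19.4 and 32.1 CPM in the control libraries against 14.9 and 14.4 CPM; -0.82 ± 0.28, SE) and Lin54 (-0.49 ± 0.19), and by Mybl2, which encodes B-MYB (-0.59 ± 0.44; 0.03 without control IFN-beta replicate 2). The NF-Y subunit genes Nfya, Nfyb and Nfyc were at -0.41 ± 0.22, -0.32 ± 0.20 and -0.22 ± 0.17. Of the E2F group, the repressors E2f8 and E2f7 were at -0.87 ± 0.39 and -0.55 ± 0.57 (0.28 for E2f7 without control IFN-beta replicate 2), and Rb1, the retinoblastoma gene, at 0.49 ± 0.19, though it was lower with SPT6 siRNA in the untreated pair (-0.34). Of 10 tested G1 cyclins, CDKs and inhibitors 7 were below 0 (median -0.05). Cdkn1a, which encodes the CDK inhibitor p21, was the only one of the 10 above 0 at an unadjusted p under 0.05: it stood at 48.9, 53.2 and 58.2 CPM in the control libraries against 75.5, 71.7 and 84.1 CPM with SPT6 siRNA (0.48 ± 0.18; adjusted p = 0.388), higher in each of 3 pairs with no overlap. Among all 13185 genes tested, 2994 were higher with SPT6 siRNA without overlap between the IFN-beta groups. At an unadjusted p under 0.05 between those groups, 970 were higher. A matching number over all 3 pairs is not given here. Cdk2 was at -0.41 ± 0.19, and Ccnd1 at -0.22 ± 0.60 with opposite signs between pairs. No gene of these lists was called. Cdkn2a, which encodes p16 and ARF, and Cdkn2b each had 0 counts in all 6 libraries, which allows up to 0.178 to 0.36 CPM (3 counts in each library). Whether these genes are intact in this line was not tested.

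**Figure D4:**
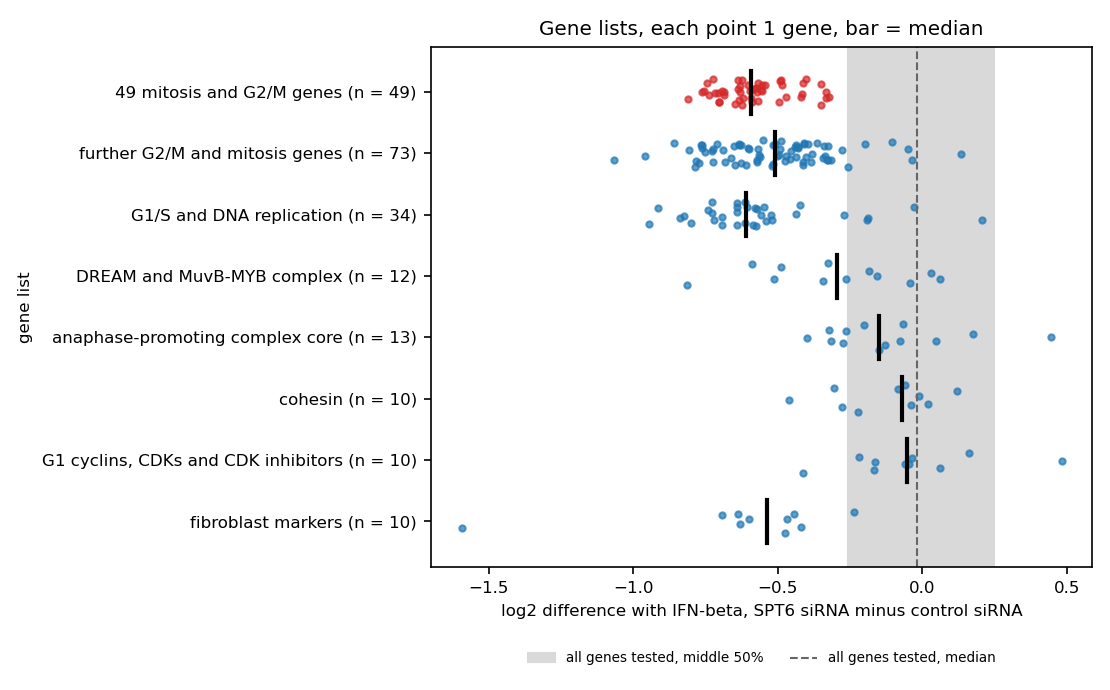
Log2 difference with IFN-beta, SPT6 siRNA minus control siRNA, for the 49 members (red) and 7 other gene lists (blue); each point is 1 gene, black bars are medians, and the grey band and dashed line are the middle 50% and the median of all 13185 genes tested. Left of the band lie the medians of the members (-0.59), further mitosis genes (-0.51), G1/S genes (-0.61), fibroblast markers (-0.54) and DREAM and MuvB-MYB genes (-0.29). Those of the anaphase-promoting complex (-0.15), cohesin (-0.07) and the G1 regulators (-0.05) lie within it.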

How the data were processed

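RNA from 6 NIH3T3 libraries was turned into libraries with NuGEN's Ovation kit and sequenced from both ends, per the labels' protocols. The deposited values are whole-number counts per gene symbol made by the authors, with no normalisation. Of tools and builds, the submitters' processing notes list HTSeq 0.6.1p1, TopHat2 2.1.0, DESeq2, GRCm38 and mm10 without saying what each did; the strand setting and the annotation are not given in the sources used here. Lines naming no gene were left out: 33.8% to 37.5% of reads lay in no feature and 27.9% to 31.3% were not unique, so genes with close copies are undercounted.

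Counts were filtered with filterByExpr (minimum 10), scaled by TMM and tested in R 4.3.3 with edgeR 4.0.16 (glmQLFit robust, glmQLFTest) on 4 group means over 6 libraries, with Benjamini-Hochberg adjustment over all genes and a threshold of 0.05. The 2 residual degrees of freedom come from the IFN-beta groups, and each lone untreated library is taken to vary as they do. Differences within a pair use log2 CPM with a prior count of 2. The scripts were tested on simulated counts. The members, lists, tests and alternatives were chosen with earlier results of these data known. Members given library by library are, in each role, the highest in mean CPM and those with the lowest and highest difference, and from other lists the 3 largest differences among genes whose average log2 CPM was at least 3; Ccnb2, Espl1, Cenpa, Mki67, Aurka and genes listed in counts were added after their values were seen. Positions are from GENCODE M21 (GRCm38). Same-group libraries were not duplicates (chi-square per degree of freedom 41.9 and 36.9). Alternatives were other scalings, DESeq2 1.42.0, limma-voom (limma 3.58.1), other filters, a replicate block, fewer libraries and, added after seeing the data, members without exon overlap.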

Additional observations from a re-analysis of the deposited data

How the results depend on the processing

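The 49 members were all below 0 with SPT6 siRNA and IFN-beta under each scaling, tool, filter and replicate block tried and with only the 4 IFN-beta libraries (medians from -0.61 to -0.51). With 1 IFN-beta library left out at a time 46 to 49 were below 0 and the median ran from -0.83 to -0.28. Of the 18 members picked by the stated rule, Espl1 not among them, 232 of 234 values, all refits of the same counts, kept their direction. The exceptions were Bub1 (0.11) and Nek2 (0.056) without control IFN-beta replicate 2. Without it Mybl2 (0.031), E2f7 (0.28) and Ccnd1 (0.76) also changed sign, and Ccnd1 was 0.18 without SPT6 siRNA replicate 1. Over the 4 fits lacking 1 library the ranges were -0.64 to 0.11 for Bub1, -0.62 to 0.056 for Nek2, -1.12 to 0.031 for Mybl2, -1.22 to 0.28 for E2f7 and -0.78 to 0.76 for Ccnd1. The cause was not tested.

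Same-numbered IFN-beta libraries deviated together across genes (correlation 0.56), but with 2 pairs the numbers are not shown to pair samples. With the number as a replicate block edgeR called 2638 genes with SPT6 siRNA and IFN-beta, among them 43 members, all lower (9.91% of all genes called lower), all but Bub1, Espl1, Nek2, Kif18a, Kif22 and Spc25. With a block of 3 matched pairs it called 3245 genes and 47 members, all but Nek2 and Kif22 (12.7% called lower), and Ccnd1 was 0.082. For the response with control siRNA the block gave 957 genes and 2 members, with SPT6 siRNA 545 genes and 1 member (median -0.22), and for the difference of responses 4 genes.

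Counts over all genes moved more. For SPT6 siRNA with IFN-beta DESeq2 called 62 and no count filter 66, with 0 members in both. For the control response, 18 genes became 204 with DESeq2, 5 with limma-voom, 77 with no count filter and 45 to 52 with an SPT6 siRNA library left out (16 to 52 over all 4). For the SPT6 siRNA response, 6 became 129 with DESeq2, 0 with limma-voom, 46 with no filter, 12 by library size only and 9 to 25 with a library left out; its member median was -0.15 by library size only, -0.078 with no filter and -0.10 to -0.079 with a library left out. No member had under 177 counts in any library.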
